A study of Mus musculus with 5 samples.

Results

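The 2 mouse libraries expressing histone H3.3 with lysine 9 replaced by methionine (K9M replicates 1 and 2) were compared with the single wildtype library (WT), 3 of the 5 reduced representation bisulfite sequencing libraries of the series. The compared libraries were chosen by their labelled genotype. The 2 libraries of the lysine 36 mutant (K36M) entered the fits only as a further group that shares the estimate of spread, and their values are given beside the others. Each library came from a pellet of 100000 cells; the labels name the source HSCs (hematopoietic stem cells) and also say that the cells were sorted from peripheral blood. The K9M and K36M mice drank water with 2 mg/ml doxycycline, which induces the mutant histone, and no doxycycline is stated for WT, so genotype and doxycycline cannot be told apart. The labels call both mutants dominant negative. They give no age, no strain and no promoter driving the mutant histone. Nor do they tie the replicates to separate animals, and the p-values below may therefore reflect technical spread alone.

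Methylation of H3 lysine 9 marks heterochromatin, silenced repeats and many repressed genes. A lysine-to-methionine H3 acts in a dominant way, because the methionine tail inhibits the methyltransferases that act on that lysine. In mammals H3K9 methylation and DNA methylation often occur on the same sequences: UHRF1 reads H3K9 methylation at newly copied DNA and helps to recruit DNMT1, the maintenance DNA methyltransferase. CpG islands, by contrast, are unmethylated at most active and poised genes. MspI, the enzyme used to cut the DNA, enriches such CpG-rich sequence.

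Between 3356656 and 3441167 CpGs were listed in the K9M libraries and 3534966 in WT. Levels are given as the relative level: the methylated count of a stretch divided by its second count, in percent of the library's plateau, the median of that ratio in the most methylated stretches. The second count is the deposited total minus the methylated count, except in K9M replicate 2, where the deposited level is on another scale and the total itself was used. A relative level can pass 100%, and a change that scales a whole library alike cannot be seen on it. A second count of 10 or more in the 3 compared libraries was required of each CpG, which 1849310 autosomal CpGs had. Stretches of 1 kb with 3 or more such CpGs numbered 159267, held 1706137 of them, and had a median second count of 38.3 per CpG. All positions are mm9, counted from 1.

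Sequences of 4 gene starts are shown first, because the results below refer to their single CpGs: the Clcn4 and Thegl windows passed the promoter test, and Fv1 and Pttg1, which did not, were chosen after their values were seen as starts inside called stretches where most measured CpGs were higher in K9M. The letters are those of RefSeq (GRCm38.p6), 250 bases before to 50 after the annotated start, read 5′ to 3′ along the gene. Each was placed on the mm9 coordinates of the data by the spacing of its CpGs. Capitals mark the CpGs at which both K9M libraries differed from WT by at least 10 points in the direction of the called stretch; CpGs in lower case differed less, differed between the K9M libraries, or were not measured deeply enough. Clcn4 (chr7:7252219-7252518, minus strand) has 27 CpGs, of which 15 were measured and 13 were higher in K9M. Fv1 (chr4:147242838-147243137, plus strand) has 13, of which 11 were measured and 9 were higher. Pttg1 (chr11:43239434-43239733, minus strand) has 20, of which 10 were measured and 9 were higher. Thegl (chr5:77444798-77445097, plus strand) has 27, of which 22 were measured and 21 were lower.
Clcn4: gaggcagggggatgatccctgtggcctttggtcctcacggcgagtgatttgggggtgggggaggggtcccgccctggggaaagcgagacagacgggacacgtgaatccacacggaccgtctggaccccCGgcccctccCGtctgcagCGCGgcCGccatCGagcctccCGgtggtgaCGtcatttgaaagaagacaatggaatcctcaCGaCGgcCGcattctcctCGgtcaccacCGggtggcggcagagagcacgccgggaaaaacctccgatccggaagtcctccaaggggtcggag
Fv1: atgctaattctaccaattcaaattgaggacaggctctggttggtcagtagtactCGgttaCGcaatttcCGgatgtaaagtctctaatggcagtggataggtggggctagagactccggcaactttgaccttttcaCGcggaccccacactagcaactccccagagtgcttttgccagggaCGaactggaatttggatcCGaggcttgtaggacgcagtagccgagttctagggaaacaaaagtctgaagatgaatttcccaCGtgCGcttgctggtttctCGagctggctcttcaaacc
Pttg1: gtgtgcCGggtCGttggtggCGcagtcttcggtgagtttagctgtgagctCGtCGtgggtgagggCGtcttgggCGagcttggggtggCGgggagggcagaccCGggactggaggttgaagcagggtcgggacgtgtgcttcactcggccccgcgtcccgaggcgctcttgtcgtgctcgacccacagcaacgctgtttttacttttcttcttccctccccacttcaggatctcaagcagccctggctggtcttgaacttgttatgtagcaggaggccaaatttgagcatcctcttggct
Thegl: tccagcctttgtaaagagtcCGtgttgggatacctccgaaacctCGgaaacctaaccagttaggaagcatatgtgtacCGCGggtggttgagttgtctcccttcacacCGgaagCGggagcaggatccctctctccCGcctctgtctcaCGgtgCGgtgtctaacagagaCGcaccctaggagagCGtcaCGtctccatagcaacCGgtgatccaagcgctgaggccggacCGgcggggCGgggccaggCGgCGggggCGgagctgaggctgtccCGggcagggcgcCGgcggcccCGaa

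Genome-wide, DNA methylation in the K9M libraries lay close to WT, and the 2 libraries did not lie on the same side of it by every measure. Pooled over all stretches, the relative level was 40.7% in WT and 40.3% ± 0.0592 (SD, n = 2) in K9M. The 2 K9M libraries were 0.446 and 0.530 points below WT; the exact two-sided permutation p was 0.333, the smallest that 1 library against 2 allows. Counted stretch by stretch, the replicates parted. Replicate 1 averaged -0.689 points from WT and lay below it on 19 of 19 autosomes, by -0.915 to -0.301 points. Replicate 2 averaged 2.30 points above WT and lay above it on 19 of 19 autosomes, by 1.93 to 2.62 points. Both K9M libraries were below WT in 28% of stretches, both above it in 36.1%, and on no common side in 35.8%. The pooled level thus lay below WT in both libraries by more than they differed from each other, while the mean over stretches lay on either side of WT.

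The replicates also parted in stretches of intermediate and high methylation. Stretches were sorted by the mean of the K36M libraries, which stand on neither side of the comparison. In the 103392 highly methylated stretches (80% or more), levels were 93.6% in WT, 92.6% in K9M replicate 1 and 96.2% in replicate 2. In the 23609 intermediate stretches (20% to 80%), they were 65.4%, 64.7% and 69.3%. In both classes WT lay between the K9M libraries. In the 32070 stretches of low methylation (under 20%), the levels were 4.07% in WT, 4.40% in K9M replicate 1 and 4.39% in replicate 2, so that both K9M libraries were slightly higher. That difference of 0.325 points had an exact two-sided permutation p of 0.333 and was 0.0478 points when WT and K9M themselves set the classes. Differences of at least 20 points shared by both K9M libraries ran upward in the low class, with 111 stretches higher and 26 lower, where a level under 20 leaves little room to fall. They ran downward in the high class, with 186 higher and 695 lower. Whether the nearness of these levels to the plateau bears on that was not tested. In the intermediate class differences of that size were near balance, with 327 and 295. Over all stretches 625 were higher and 1019 lower. The direction depended on the cut. At 10 points or more, 7010 were higher and 5761 lower over all stretches. In the high class 4545 were then higher and 4249 lower, and in the intermediate class 2071 and 1354. These counts have no test.

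**Figure D1:**
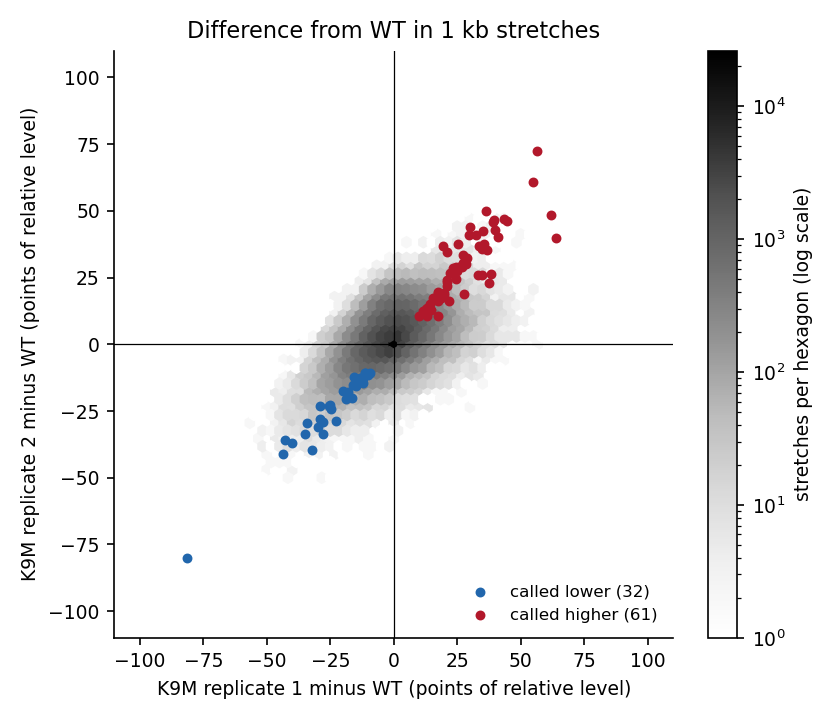
Difference from WT in each of 159267 stretches of 1 kb, K9M replicate 1 on the x axis and replicate 2 on the y axis, in points of relative level; grey hexagons count stretches on a log scale and coloured points are called stretches. The cloud is centred near 0. The 61 stretches called higher and the 32 called lower have both K9M libraries on the same side of WT, as the rule for a call requires. Most stretches with both K9M libraries at least 10 points from WT (7010 higher, 5761 lower) were not called.

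Single stretches did differ. Among those called gains outnumbered losses, as among all shared differences of at least 10 points but not of at least 20 points. A stretch was called at an adjusted p under 0.05 in a logistic fit with limma-moderated spread, a mean difference of at least 10 points and both K9M libraries on the same side of WT. By that rule 61 stretches (0.0383%) rose in K9M and 32 (0.0201%) fell. The fit with WT and K9M alone, without the K36M libraries in the estimate of spread, called 1 higher and 1 lower, and limma on relative levels called 26 higher and 20 lower. With either K9M library left out, 0 were called in either direction, and with either K36M library left out 1 was called higher and 2 lower; each such fit rests on fewer residual degrees of freedom than the 2 of the full fit.

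The stretches that rose were mostly little methylated in WT. In the 61 gains the median level was 11.7% in WT, 38.6% in K9M replicate 1 and 40.1% in replicate 2. WT was under 20% in 48 of them and under 10% in 27. The K36M libraries had medians of 8.43% and 8.09%, and lay nearer to WT than to K9M in 54 of 61. Both K36M libraries were below both K9M libraries in 59. The gain was spread over the CpGs of most stretches: 841 of their 950 CpGs were higher in both K9M libraries, and no CpG made up more than 50% of the difference of its stretch. Within a stretch the share of CpGs higher in both had a median of 96.4% and a minimum of 37.5%. The WT and K9M values follow from the rule that chose the stretches, and the K36M libraries entered it through the estimate of spread, so that stretches where those 2 libraries were close to each other were favoured.

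The stretches that fell had a different relation to K36M. In the 32 losses the median level was 31.0% in WT, 9.35% in K9M replicate 1 and 12.1% in replicate 2. Of their 609 CpGs, 496 were lower in both K9M libraries. Within a stretch this share had a median of 96.6% and a minimum of 18.9%, so not every loss was shared by most of its CpGs. Both K36M libraries were also below the lone WT library in 27 of 32, with medians of 19.9% and 20.1%, and lay nearer to K9M than to WT in 17. The K9M and K36M differences share the same WT library. In the 17 of these 27 stretches where K36M lay nearer to K9M, a deviation of the WT library cannot be told apart from a loss in both mutants; in the other 10 K36M lay nearer to WT.

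**Figure D2:**
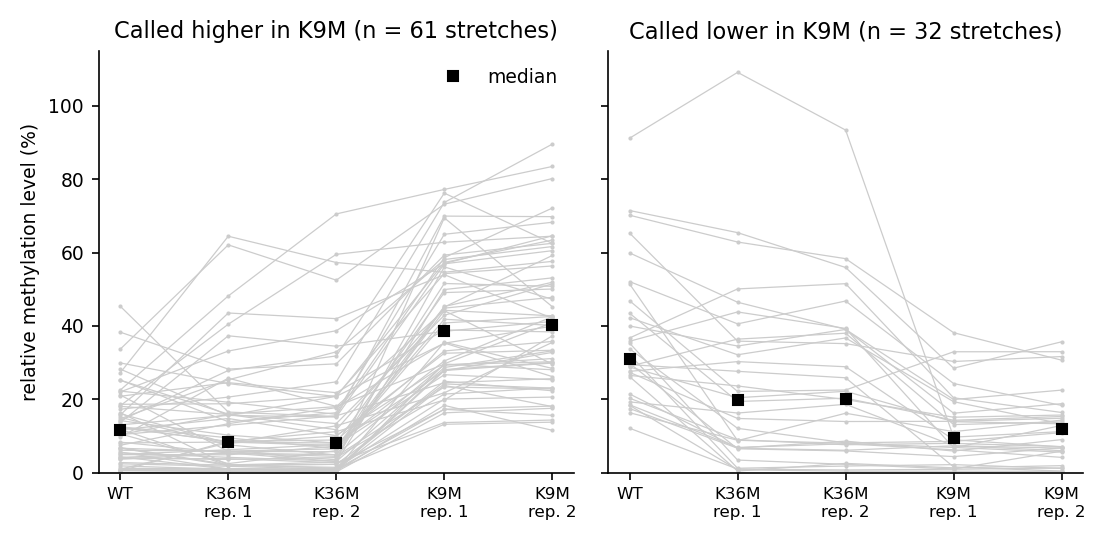
Relative methylation level (%) of each called stretch in the 5 libraries; each grey line is 1 stretch, joined across libraries to follow it, and black squares are medians. Among gains the median is 11.7% in WT and 8.09% to 8.43% in K36M against 38.6% and 40.1% in K9M; among losses WT is the highest median at 31.0%.

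Promoters as a class stayed unmethylated in K9M. Of the promoter windows of 300 bases that could be placed, 10553 windows of 9296 genes had 3 or more measured CpGs, and 92.9% of them were under 10% in all 5 libraries. The median K9M difference from WT was 0.00118 points. The same fit called 1 window higher (0.00948%) and 1 lower (0.00948%), the promoters of Clcn4 and Thegl. limma on relative levels also called 1 in each direction, with an adjusted p of 0.0375 for both genes. The fit without K36M called 0 in either direction, with 68 windows at an unadjusted p under 0.05.

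The promoter of Clcn4, which encodes an endosomal chloride/proton exchanger, gained methylation in both K9M libraries. Its window was at 28.9% in K9M replicate 1 and 30.9% in replicate 2 against 1.25% in WT, with K36M at 1.23% and 0.984%. K9M averaged 29.9% ± 1.41 (SD, n = 2), 28.7 points above WT (logistic fit, adjusted p = 0.0093). The 13 CpGs shown in capitals run from 121 to 13 bases before the start. At the CpG 121 bases before it the level was 0% in WT, 35.6% in K9M replicate 1 and 47.6% in replicate 2. The 2 measured CpGs after the start, at 27 and 46 bases, did not separate the groups: the first was at 49.6% in WT, 21.7% in K9M replicate 1 and 51.1% in replicate 2. The 1 kb stretch around it (chr7:7252001-7253000, 19 CpGs) was 1.19% in WT, 28.1% and 30.1% in K9M and 1.14% and 0.925% in K36M (adjusted p = 8.0e-05), and its call is 1 of the 2 kept in the fit of WT and K9M alone (adjusted p = 0.0201). The depth of this stretch was high and unequal. Its second count per CpG was 129 in WT and 188 and 245 in K9M, against a median of 38.3 over all stretches. Over autosomal CpGs the library medians were 18 in WT and 15 and 20 in K9M. Whether this depth bears on the gain was not tested.

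Fv1, a retrovirus restriction gene that itself derives from the gag gene of an endogenous retrovirus, lies head to head with Miip, which encodes a protein that inhibits cell migration. The 2 neighbouring stretches over their shared start region rose together. In chr4:147243001-147244000, which holds the start of Fv1, the level was 69.5% in K9M replicate 1 and 45.2% in replicate 2 against 5.43% in WT, with K36M at 4.20% and 3.19% (logistic fit, adjusted p = 0.00846). In chr4:147242001-147243000, which holds that of Miip, it was 18.4% and 11.6% in K9M against 0.843% in WT, with K36M at 0.816% and 0.505% (adjusted p = 0.00975). Both K9M libraries were apart from the other 3, and replicate 1 was well above replicate 2. At the CpG 16 bases after the Fv1 start the levels were 0% in WT, 75.4% in replicate 1 and 34.8% in replicate 2. The promoter window of Fv1, with K9M at 26.8% ± 11.7 (SD, n = 2) against 0.797% in WT, did not pass the test by itself (adjusted p = 1).

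Other gains also covered annotated starts. The stretch over the start of Pttg1, which encodes securin, the inhibitor of separase in mitosis, was 23.4% and 22.8% in K9M against 3.71% in WT, with K36M at 5.31% and 4.48% (adjusted p = 0.00244). The stretch over Pik3cd, the p110delta catalytic subunit of leukocyte PI 3-kinase, was 17.3% and 18.2% in K9M against 5.64% in WT, with K36M at 1.01% and 0.942% (adjusted p = 0.00284). In both, the K9M libraries were the highest of the 5 and close to each other. The 2 adjoining stretches at Samd11, which encodes a SAM domain protein, were 4.17% and 4.34% in WT and 27.8% to 33.2% in K9M, against 0.609% to 5.41% in K36M. The one over the start rests on 6 CpGs, of which 4 were higher in both K9M libraries (logistic fit, adjusted p = 0.0421). The Samd11 promoter window had 2 measured CpGs and was not tested. The CpG-dense stretch at Rfx8, a member of the RFX transcription factor family, started higher, at 25.2% in WT, and was 44.3% and 42.8% in K9M (adjusted p = 0.0255). The promoter windows of Pttg1 (adjusted p = 0.198), Pik3cd (adjusted p = 0.334) and Rfx8 (adjusted p = 1) did not pass the test by themselves, and at Pik3cd 3 of 24 measured CpGs were higher by at least 10 points in both K9M libraries.

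**Figure D3:**
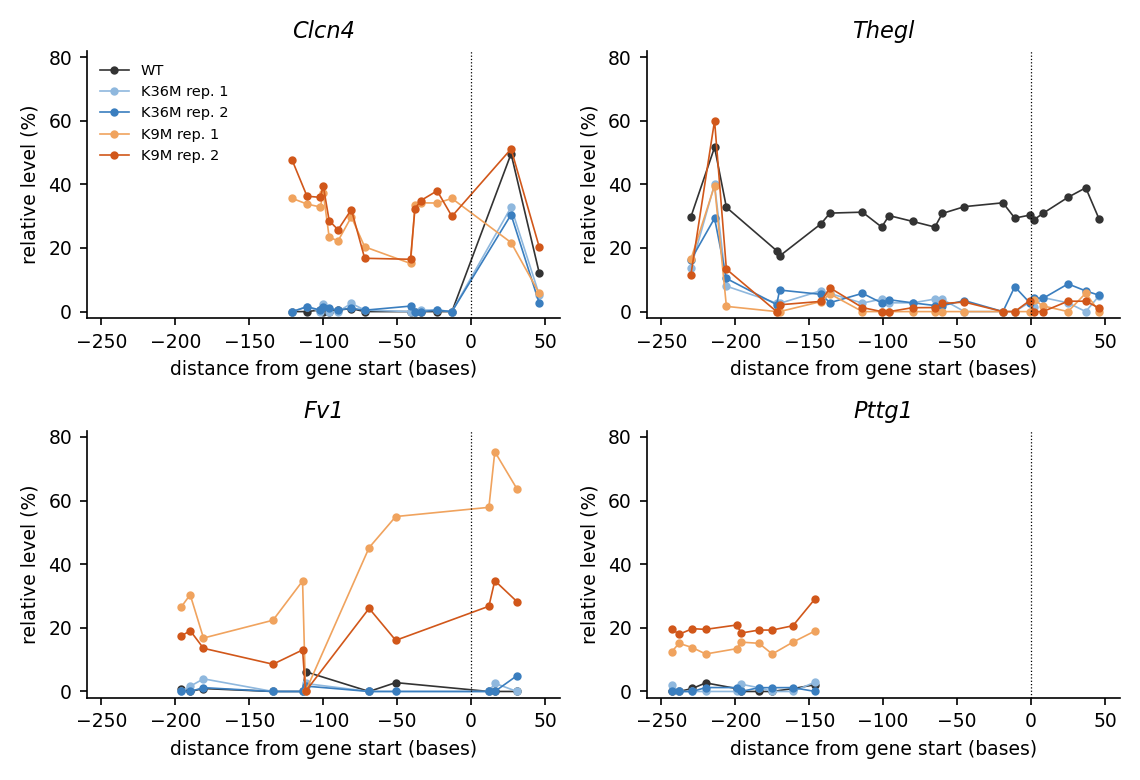
Relative level (%) of single CpGs at 4 gene starts against distance from the start in bases (negative values are upstream; the dotted line is the start), in WT, 2 K36M and 2 K9M libraries. At Clcn4, Fv1 and Pttg1 the K9M libraries rise above WT and K36M, which stay near 0 over most CpGs; at Thegl WT alone is raised, near 30%, over nearly the whole window.

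Thegl, related to a spermatid protein gene, showed the opposite. Its promoter window was at 3.03% and 4.53% in K9M against 30.0% in WT, with K36M at 4.76% and 5.21% (adjusted p = 0.0439). WT was apart from all 4 mutant libraries, which lay between 3.03% and 5.21%. The loss covered 2 adjoining stretches: chr5:77444001-77445000 was 29.8% in WT and 4.41% and 6.81% in K9M, and chr5:77445001-77446000 was 43.5% in WT and 14.3% and 15.3% in K9M. K36M was at 5.94% to 6.54% in the first and 19.4% to 20.3% in the second. At the CpG 19 bases before the start WT was at 34.2% and each of the 4 mutant libraries at 0%.

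Other gains lay inside genes or near their starts, and the genes described next were picked out after their values were seen. Genes are named here where a placed start puts the stretch within the gene's annotated length, or within 5 kb of the start, which held for 30 gains and 11 losses; this naming was added after the values were known, and exons and introns of mm9 were not used here. Zfpm1, which encodes FOG1, the cofactor of GATA factors in erythroid and megakaryocytic cells, held 2 of these stretches. The one 14.5 kb into the gene (chr8:124820001-124821000, 17 CpGs) was 54.3% and 56.4% in K9M against 18.7% in WT, with K36M at 18.8% and 21.0% (adjusted p = 0.00163). The one 27.5 kb in (chr8:124833001-124834000, 12 CpGs) was 65.0% and 68.3% in K9M against 25.3% in WT, with K36M at 13.9% and 16.4% (adjusted p = 0.00754). All 17 and all 12 CpGs were higher in both K9M libraries.

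Gata2, the GATA factor that maintains hematopoietic stem cells, had a CpG-dense gain 2.62 kb downstream of its first placed start; the stretch also lies within Gm38708, whose placed start is nearer, at 0.876 kb. It (chr6:88146001-88147000, 33 CpGs) was 27.9% and 29.9% in K9M against 12.4% in WT, with K36M at 8.43% and 8.08% (adjusted p = 0.0057), and 32 of 33 CpGs were higher in both K9M libraries. Msi2, an RNA-binding protein of hematopoietic stem cells, had a stretch at 56.1% and 47.3% in K9M against 21.2% in WT, with K36M at 5.80% and 3.53% (adjusted p = 0.0282). Nfatc2, a transcription factor of activated T cells, had the second largest gain among CpG-dense stretches: chr2:168379001-168380000, with 33 CpGs, was 56.9% and 60.5% in K9M against 28.2% in WT, with K36M at 15.6% and 15.2% (adjusted p = 0.00367). Within Srf, the serum response factor, a stretch was 42.9% and 51.5% in K9M against 10.4% in WT, with K36M at 15.9% and 13.4% (adjusted p = 0.00271).

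At Zfpm1, Gata2, Msi2, Nfatc2 and Srf both K9M libraries were above the other 3, and K36M was below WT except at the first Zfpm1 stretch and at Srf. At Gse1 K36M lay between the groups in the stretch inside the gene, which was 58.1% and 61.6% in K9M against 14.7% in WT, with K36M at 25.3% and 33.0%. At Gpam, a mitochondrial acyltransferase of lipid synthesis, the K36M libraries lay nearly as far above WT as the K9M libraries: 38.6% and 41.2% in K9M against 13.7% in WT, with K36M at 37.3% and 34.5%. A stretch within 2900026A02Rik was likewise 54.6% and 57.6% in K9M against 27.3% in WT, with K36M at 64.5% and 57.3%. Such shared differences turn on the single WT library. Many of these calls rest on the processing: 17 gains and 9 losses stayed called both with the plateau of the top 40% of stretches and with limma on relative levels. Of the stretches described in the text, those were the gains at Clcn4, Pttg1, Pik3cd, chr9:95482001-95483000 and chr10:5633001-5634000, and the losses at Thegl (both stretches), Slc12a8, chr18:30427001-30428000, chr5:129969001-129970000 and chr11:48639001-48640000. Every other described stretch lost its call under at least 1 of the 2, among them those at Zfpm1 (limma, adjusted p = 0.062 and 0.0771), Gata2 (0.0586), Nfatc2 (0.124), Srf (0.118) and Msi2 (0.169). Gains inside Arpp21, Cenpt and Draxin and upstream of Gse1 also stayed called under both but were not picked for description. The genes described are therefore not a fair sample of the gains.

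**Figure D4:**
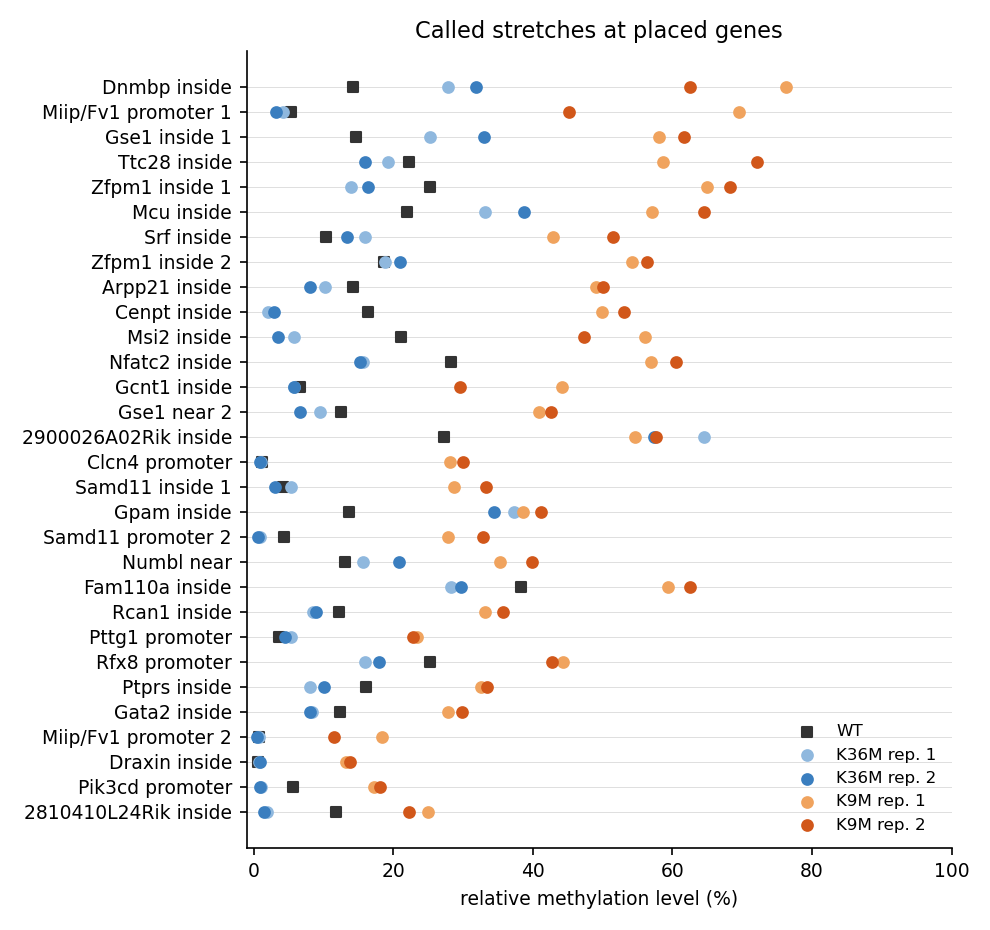
Relative methylation level (%) of the 30 gained stretches that hold, lie inside or lie within 5 kb of a placed gene, ordered by size of the difference; squares are WT, blue circles K36M and orange circles K9M. The orange points lie to the right of WT in every row, from 11.6% to 76.2%, while K36M stays near WT in most rows and reaches K9M at Gpam and 2900026A02Rik.

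The largest single gain was in chr17:39148001-39149000, where 8 CpGs within 78 bases rose from 17.3% in WT to 73.7% and 89.6% in K9M, with K36M at 20.6% and 24.8% (adjusted p = 0.00284). The next were chr11:67481001-67482000, from 22.5% to 77.2% and 83.5%, and a stretch inside Dnmbp, a scaffold protein of the actin cytoskeleton, from 14.2% to 76.2% and 62.5%. At the first of these 2 K36M was at 48.2% and 70.5%, between WT and K9M. Stretches at chr11:75708001-75709000, inside Ttc28, at chr8:73340001-73341000 and at chr9:95482001-95483000 rose by 42.5 to 45.4 points. Of these, the 20 CpGs of chr8:73340001-73341000 made the largest gain among CpG-dense stretches, from 33.7% in WT to 73.2% and 80.2%, with K36M at 62.1% and 52.5%. Further CpG-dense gains were chr10:126763001-126764000, with 45 CpGs at 45.4% in WT and 69.9% and 69.8% in K9M, and a stretch inside Fam110a, at 38.3% in WT and 59.3% and 62.5% in K9M.

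One gain started from no detected methylation. In chr1:172974001-172975000 the methylated count was 0 in WT, which allows a level of up to 0.58%, and the K9M libraries were at 29.7% and 40.9% (adjusted p = 0.000841). Its K36M levels were 0.388% and 0.219%. The adjoining stretch rose from 2.44% to 35.6% and 28.4%. Only 6 of the 12 CpGs of the first stretch were higher in both K9M libraries, against 11 of 12 in the second. Another pair, chr10:5633001-5635000, rose from 6.87% to 20.1% and 20.6% in its first kilobase, over 44 CpGs, and from 8.35% to 29.5% and 30.3% in the second.

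Among the losses, chr7:132021001-132022000 fell furthest, from 91.2% in WT to 9.71% and 11.2% in K9M, while K36M stayed at 109% and 93.4% (adjusted p = 0.00251). It rests on 3 CpGs within 67 bases, all lower in both K9M libraries. Here the K9M libraries were apart from all 3 others. The same held inside Bcl2l11, the gene of the pro-apoptotic protein BIM, where 5 CpGs fell from 59.9% in WT to 16.2% and 18.8% in K9M, with K36M at 46.5% and 39.1% (adjusted p = 0.0165). A stretch inside Slc12a8, a transporter gene, fell from 29.5% to 1.58% and 0.460%, with K36M at 27.6% and 25.9% (adjusted p = 0.00734).

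CpG-dense losses were led by chr2:156188001-156189000, whose 29 CpGs fell from 71.5% in WT to 28.5% and 35.7% in K9M, with K36M at 65.4% and 55.9%. The 2 adjoining stretches chr14:54916001-54918000 fell together: the first from 52.1% to 24.3% and 18.4%, the second from 70.2% to 38.2% and 30.7%. K36M stayed at 40.6% to 62.9% over both. In chr4:133715001-133716000, 28 CpGs fell from 39.99% to 19.96% and 22.5%, with K36M at 34.5% and 39.1%. In each of these the K9M libraries were below both K36M libraries; the difference between the mutants was not tested. In 4 other large losses K36M was as low as K9M or close to it: chr18:78060001-78061000 (51.5% in WT, 11.2% and 14.3% in K9M, 8.76% and 16.2% in K36M), chr18:30427001-30428000, chr16:91140001-91141000 and chr5:129969001-129970000. The loss with the smallest adjusted p, chr11:48639001-48640000 (8.0e-05), was of that kind, at 18.4% in WT, 0.428% and 0.40% in K9M, and 0.803% and 0.441% in K36M; it is the only loss still called in the fit of WT and K9M alone.

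Differences extended most clearly into the sequence 1 kb away. In the 33 measured neighbours 1 kb away from a gain, K9M replicate 1 averaged 8.24 points and replicate 2 averaged 7.13 points above WT, and 66.7% were higher in both. In the 16 neighbours of losses the averages were -11.4 and -8.34 points, and 87.5% were lower in both. At 2 kb the neighbours of losses no longer lay below WT, at 0.776 and 2.81 points. Those of gains were at 4.63 and 4.42 points over 25 stretches, of which 52.0% were higher in both, against 36.1% of all stretches. They stayed above WT farther out. At 3 to 5 kb the averages were 1.68 and 4.20 points with 47.5% higher in both. At 6 to 10 kb they were 2.78 and 4.47 points with 48.4% higher in both. Replicate 2 lay above WT away from gains as well. Over all stretches the averages were -0.689 and 2.30 points. In intermediate stretches they were -0.670 and 3.88 points, with 39.5% higher in both, so replicate 2 was little beyond its usual offset. Called stretches were left out of the neighbours, and these values have no test.

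**Figure D5:**
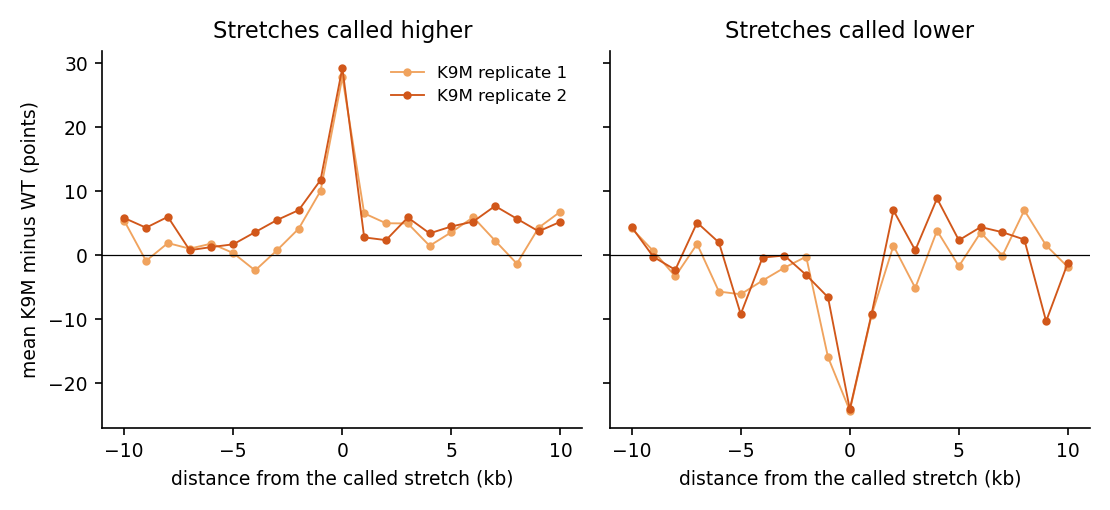
Mean difference of each K9M library from WT (points of relative level) against distance from the called stretch in kb, for gains (left) and losses (right); the point at 0 is the called stretches themselves and each other point averages the measured stretches at that distance. The difference falls from the called stretch to 8.24 and 7.13 points at 1 kb for gains and to -11.4 and -8.34 points for losses. Farther out the averages for gains stay mostly above 0, at 2.78 and 4.47 points over 6 to 10 kb, against -0.689 and 2.30 points over all stretches. Those for losses lie on either side of 0.

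Broad domains, the scale at which H3K9 methylation is known to be laid down, gave no call. The test could hardly have made one. Of 2408 windows of 1 Mb, limma called 0 (0%) lower and 0 (0%) higher. Only 1 window had an unadjusted p under 0.05, far fewer than that cut gives when nothing differs. Over all windows K9M replicates 1 and 2 had median differences of -0.711 and 2.16 points from WT. This offset between the replicates enters the spread of each window, so the lack of calls does not show that broad domains were unchanged. Both K9M libraries were lower than WT in 167 windows, both higher in 675, and on opposite sides in 1566. The smallest p was that of chr2:175000001-176000000, with a mean level over 17 stretches of 14.7% and 17.0% in K9M against 20.2% in WT, with K36M at 21.0% and 19.4% (limma, unadjusted p = 7.79e-05, adjusted p = 0.188). There 11 of the 17 stretches were lower in both K9M libraries. The next, chr19:19000001-20000000, was 80.8% in WT, 71.7% in K9M replicate 1 and 79.5% in replicate 2, so that it rested on replicate 1.

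Promoters of genes listed as writers, readers or erasers of H3K9 and DNA methylation gave no call, like nearly all promoters tested. Of 13 genes listed as H3K9 methyltransferases and readers 8 had measured windows, of 7 H3K9 demethylases 4, and of 8 genes of the DNA methylation machinery 7. In these lists 0 were called (logistic fit, adjusted p = 1 for each). Over all windows 0.00948% were called in each direction, so that lists of this size would rarely hold a call. All windows of these genes were at 3.997% or less in every library except that of Prdm9. Prdm9 encodes a germline methyltransferase known for other H3 lysines, so it fits the H3K9 list poorly. Its window was at 53.2% in both K9M libraries against 49.5% in WT, with K36M at 74.2% and 43.5%. The median K9M difference was 0.0892, 0.167 and -0.00226 points in the 3 lists, against 0.00118 points over all windows. Promoters of Zfp genes, a zinc finger family whose gene clusters are known for H3K9 trimethylation, were measured for 171 of 336 genes: 0 of 201 windows were called, and the median difference was 0 points. Of 22 Hox genes 11 were measured and 0 called. With 1 call in each direction among 10553 windows, these counts do not set either family apart.

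The cell type could not be checked by promoter levels. Kit, Hlf and Procr, the 3 measured of 6 listed stem cell genes, had promoter windows under 2% in all 5 libraries. Since 92.9% of all windows were under 10% in all 5 libraries, such low levels do not tell cell types apart. Tcf7, a T lineage gene that stem cells also express, had a window of 17 CpGs at 8.97% in WT and 10.3% and 10.6% in K9M. Another Tcf7 window, of 37 CpGs, was at 0.687% in WT and 0.572% and 0.554% in K9M. No window of the B, NK, neutrophil, monocyte or erythroid markers was measured, so differences in the mix of cells between libraries were not tested. The libraries were alike on the sex chromosomes: CpG-dense X stretches averaged 47.5% to 49.9% in the 5 libraries. Of 638 such stretches only 12 to 27 lay between 20% and 80% in a library. The median second count on X was 0.55 to 0.6 of that on autosomes. Each library listed 2621 to 2733 CpGs on Y.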

How the data were processed

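The deposited tables have no header and give, for each CpG, the methylated fraction and a total count. Per the submitters' processing notes, cutadapt, BSMAP and mm9 were used, without versions. The sources used here do not give how the authors computed the fraction or whether PCR duplicates (12 cycles, per the labels' protocols) were removed. The methylated count is the level times the total, rounded; this product was whole for 100% of CpGs in 4 libraries and 89.2% in K9M replicate 2.

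The quasi-binomial logistic model per stretch used the log plateau (1.24 in WT, 1.38 and 0.957 in K9M) as offset and a deviance dispersion moderated with limma 3.58.1 (squeezeVar, R 4.3.3), held at or above 1 and above that in 21.7% of stretches. It had 2 residual degrees of freedom, from the mutant pairs: WT, with 1 library, is assumed to vary like them. In 196 stretches thin K36M counts were dropped. p-values were adjusted by Benjamini-Hochberg over all stretches. CpGs on 1 read are not independent, and intervals and the limit for a count of 0 (3 counts) cover counting error only. Simulated counts were used to test the fit.

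The stretches named are the 10 largest losses and gains, the 5 largest of each with 20 or more CpGs, called neighbours within 5 kb, and the 2 windows of smallest p. Further called stretches, at gene starts, inside named genes or with the smallest adjusted p (such as those at Clcn4, Pttg1, Pik3cd, Gata2, Msi2, Srf, Gpam and Slc12a8), were chosen after their values were seen. The design named genes only with an mm9 annotation. None was at hand, so, after the values were seen, RefSeq GRCm38.p6 promoters were placed on the listed CpGs by exact spacing (6 or more listed CpGs, 1 place in the genome): 11611 of 32851, with 99.8% on the table's chromosome and 99.8% on its strand. Other genes may lie nearer, and chromosome 18 promoters were not used here. The Zfp and Hox lists were added after the values were seen. The members and lists were chosen with earlier results of these data known.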

Additional observations from a re-analysis of the deposited data

Results flagged for a closer look

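Mitochondrial CpGs, which entered no comparison, carried a methylated count above the limit that a count of 0 allows in each of the 5 libraries. The methylated count per second count there was 0.548% and 0.302% in K9M, 0.436% in WT, and 0.625% and 0.468% in K36M. Exact binomial 95% intervals were 0.392% to 0.485% in WT, 0.490% to 0.611% in K9M replicate 1 and 0.260% to 0.349% in K9M replicate 2. The K9M libraries lay on either side of WT.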

How the results depend on the processing

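Calls are given as gains, then losses. Against 61 and 32, the counts were 29 and 15 with a second count of at least 5 per CpG, 96 and 56 with 5 or more CpGs per stretch, 37 and 20 when the top 40% of stretches set the plateau, 26 and 20 with limma on relative levels, 1 and 1 with WT and K9M alone, and 387 and 167 with levels as deposited. They were 0 and 0 both with a binomial on scaled counts and for single CpGs (9130 and 1101 at an unadjusted p under 0.05, both logistic fits). A difference of at least 20 points left 41 and 16. Leaving out 1 library gave 0 to 1 gains and 0 to 2 losses; without K9M replicate 1 or 2, 2672 and 3043 stretches had an unadjusted p under 0.05. Both the logistic fit and limma, a criterion chosen after seeing the data, called 19 and 9. The causes of these changes in the counts were not tested. Where libraries were left out, the fits also had fewer samples and residual degrees of freedom. Of the 93 called stretches, 28 stayed called with limma, 57 with the other plateau, 2 with WT and K9M alone and 0 without either K9M library; none changed sign.

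Windows called lower numbered 1 with the plateau from the top 40% of stretches, 4 with pooled counts and 0 to 1 with a K9M library left out. The pooled difference was -0.811 points with the other plateau, -0.614 points at a second count of 20 and 3.62 points with levels as deposited. Levels as deposited gave 12.6 points in intermediate and 20.5 points in high stretches; there K9M replicate 2 is on another scale. The low class gave 0.295, 0.248 and 0.0478 points with the other plateau, a second count of 20 and classes by the compared libraries. Promoters called numbered 0 and 0 with WT and K9M alone. WT and K9M share only replicate number 1, so the number does not pair them. The deviations of same-numbered K36M and K9M libraries correlated at 0.0632 over stretches. limma with the number as a replicate block, added after seeing the data and with 1 residual degree of freedom, called 0 gains and 3 losses, with 8304 stretches at an unadjusted p under 0.05; all 3 were also called by limma without it.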
